A study of Mus musculus with 2 samples.

Results

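The genes described are 9 members of the Hedgehog pathway, Shh, Ihh, Ptch1, Smo, Hhip, Gas1, Gli1, Gli2 and Gli3, of 27827 genes named on an Agilent whole mouse array. They were chosen by name: every spot that is not a control and carries one of these gene names was taken, which gave 16 probes and 61 spots on each array. RNA came from prostaspheres, balls of cells that prostate epithelium forms when it is cultured in Matrigel, and each of 2 arrays held a pair of RNAs labeled with Cy5 and Cy3. On the genotype array, the Cy5 RNA was from wild type C57/Bl6J spheres and the Cy3 RNA from ER-Sox9flox/flox spheres, both given tamoxifen (TAM). On the treatment array, both RNAs were from ER-Sox9flox/flox spheres, with vehicle for Cy5 and TAM for Cy3. In the ER-Sox9flox/flox line, Sox9 is floxed and a TAM-dependent Cre is expressed from the broadly active Rosa26 locus. All 4 RNAs came from the C57/Bl6J background, and all spheres had dihydrotestosterone in the medium for 6 days before TAM at 5 µM or vehicle was given for 6 days. By the labels the cells were urogenital sinus epithelium of embryos at 16 dpc, but the methods describe a sphere assay on adult prostate. The number of embryos behind each RNA is not given in the sources used here.

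In Hedgehog signaling, a secreted ligand such as Shh or Ihh binds Ptch1, which otherwise holds the membrane protein Smo inactive. Once released, Smo acts through the primary cilium on the transcription factors Gli1, Gli2 and Gli3. Gas1, with Cdon and Boc, is a cell surface protein that binds the ligand together with Ptch1, while Hhip binds the ligand and takes it away. Ptch1, Hhip and Gli1 are themselves targets of the pathway in many tissues. In the developing prostate, Shh is known as an epithelial signal of the urogenital sinus to which the surrounding mesenchyme responds.

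The array measures each gene through probes of 60 bases. The probes below lie in coding sequence, 1 for each of the receptor, the transducer and the activating factors described here. For Smo and Gli2, the value of the gene is read from another, brighter probe. They are printed whole, 5′ to 3′ in the sense of the transcript, as the scanner files give them. The positions are those of the array annotation, whose genome build is not named in the files.
Ptch1 (chr13:63612907-63612966, minus strand): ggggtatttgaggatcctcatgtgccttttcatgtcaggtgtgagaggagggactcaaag
Smo (chr6:29705582-29706815, plus strand): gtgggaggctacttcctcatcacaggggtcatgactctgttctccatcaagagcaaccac
Gli1 (chr10:126767991-126768050, minus strand): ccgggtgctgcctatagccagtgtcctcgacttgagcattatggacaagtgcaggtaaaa
Gli2 (chr1:120732839-120732898, minus strand): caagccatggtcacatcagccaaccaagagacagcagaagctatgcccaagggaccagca
The Smo probe covers 1234 bases of the genome, so it joins 2 exons, and the other 3 lie within 1 exon each.

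Every log2 ratio below is Sox9-expressing RNA (Cy5) over Sox9-deleted RNA (Cy3). The direction was taken from the titles, treatments and dyes. The source names, which call the Cy5 RNAs SOX9 and the Cy3 RNAs control, were not used, and if they named the deleted gene every sign would turn. The genotype label reads null for both RNAs of the treatment array, so there the treatment tells them apart. With this reading Sox9 had log2 ratios of 2.69 on the genotype array and 2.37 on the treatment array on its brightest probe, and 1.18 and 1.27 on a second. The brightness of the brightest probe was 1634 in wild type against 252.6, and 1198 in vehicle against 232.2. All 3 Sox9 probes were well above background in both RNAs called Sox9-deleted here, so Sox9 signal remained in them. The most distal probe had log2 ratios of -0.997 and -1.22. It was above background on 10 spots in each Sox9-deleted RNA and in vehicle, and on 0 in wild type. Dyes were not swapped, so dye bias of a probe and a difference between RNAs cannot be told apart. On the treatment array the RNAs also differ in TAM itself, and on the genotype array in the line with its Cre. Within an array, these cannot be told apart from loss of Sox9. Both arrays were on 1 slide, and each RNA was hybridized once, so the error rests on 2 arrays that share neither their Cy5 nor, by the labels' numbers, their Cy3 RNA. Brightness is given per RNA after normalization, in arbitrary units, and includes a constant of 50 that draws the log2 ratios of dim probes toward 0. A probe is called at background where the scanner software did not mark most of its spots as well above background. Probes at background in all 4 RNAs had a median brightness of 90.2 to 90.7.

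Of the 16 probes, 6 were well above background in all 4 RNAs and 8 in none. A test was possible for 7 probes of 5 genes, Ptch1, Smo, Gas1, Gli2 and Gli3, which were well above background in one dye on both arrays. After Benjamini-Hochberg adjustment limma called 0 of the 7 at an adjusted p under 0.05, where it called 2 of all 22731 probes tested (0.0088%). At an unadjusted p under 0.05, 4 of the 7 probes, which belong to Gas1, Smo and Gli3, were higher with Sox9, against 9.5% of all probes. Gas1 was the 1 member at least 2-fold higher on both arrays, a rule that 66 probes (0.29%) met. By the brightest probe of each gene, 3 of the 5 tested members were higher with Sox9 on both arrays, where 33.8% of all 15131 tested genes were, and 0 of the 5 were lower on both, where 33.8% of genes were. Ptch1 and Gli2 differed in sign between the arrays, Ptch1 with a value near 0 on the genotype array (-0.02). The other members were not tested. A gene can pass the background filter through the RNAs in which it is brighter alone, so no count over the tested members stands for all 9.

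**Figure D1:**
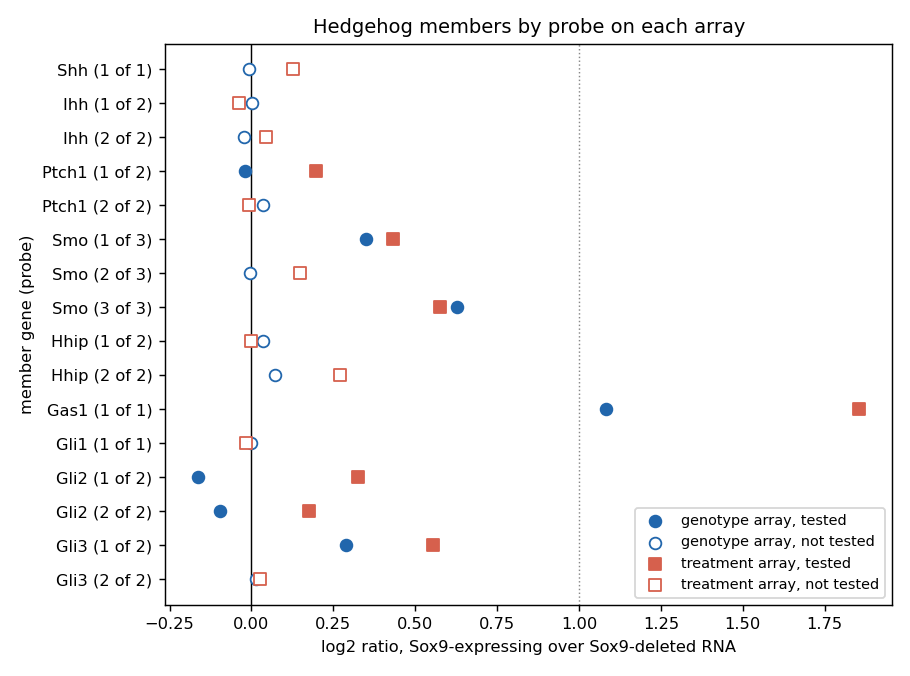
Log2 ratio of Sox9-expressing over Sox9-deleted RNA for each of the 16 probes of the 9 members, with circles for the genotype array and squares for the treatment array. Filled symbols are tested probes, open symbols are probes not tested, and the dotted line marks a 2-fold difference, which Gas1 passes on both arrays (1.08 and 1.86).

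The ligands Shh and Ihh were at background by the software's mark. Shh, the ligand of the developing prostate epithelium, had brightness values of 88.7 in wild type, 96.4 in vehicle, and 89.2 and 88.3 in the Sox9-deleted RNAs of the genotype and treatment arrays (chr5:28783983-28784042, minus strand, 10 spots). Ihh, a ligand best known from cartilage and gut, lay between 95.2 and 97.7 over the 4 RNAs on a probe with 10 spots, and between 91.1 and 94.1 on its other probe. Both Ihh probes and Shh thus varied little over the 4 RNAs, and neither gene was tested. The signal over local background of the 10-spot Ihh probe was 13.7 to 16.8, above the level that holds 95% of single negative control spots in each RNA (9.90 to 15.4), so a low level of Ihh can be neither claimed nor denied here. Shh passed that level in vehicle RNA alone (12.1 against 9.90), and the same holds for it there.

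Ptch1, the receptor, was above background on all 10 spots of one probe in each of the 4 RNAs, though dim. Its brightness was 131.0 in wild type against 132.7 in Sox9-deleted RNA, and 134.2 in vehicle against 117.1. The log2 ratio was -0.02 on the genotype array, where the 9 spots not marked as outliers lay between -0.05 and 0.01, and 0.20 on the treatment array, where the 10 spots lay between 0.14 and 0.37. These spots are repeats of 1 pair of RNAs each. Over the arrays the mean was 0.09 ± 0.15 (SD over n = 2 arrays, adjusted p = 0.645 by limma), within the spread. A second Ptch1 probe, downstream of the first at chr13:63610298-63610357, was at background, with brightness values of 82.7 to 90.4.

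Smo, the transducer that Ptch1 holds in check, was higher with Sox9 on both arrays by both of its tested probes. The brighter probe (chr6:29711225-29711284) had 6445 in wild type against 5059, and 5914 in vehicle against 4387. Its log2 ratios of 0.35 and 0.43 gave a mean of 0.39 ± 0.06 (SD over n = 2 arrays, adjusted p = 0.164 by limma), a 1.31-fold difference. The junction probe printed above had 2551 against 1650 on the genotype array and 2747 against 1842 on the treatment array. Its mean was 0.60 ± 0.04 (SD over n = 2 arrays, adjusted p = 0.108 by limma), a 1.52-fold difference. Each mean was larger than its spread between arrays, and the Sox9-expressing RNAs did not overlap the Sox9-deleted RNAs on either probe. The share of all probes with such an order is not given here. Neither mean passed the adjusted threshold. The remaining probe named Smo (chr6:29687915-29687974), upstream of the other 2, was at background in all 4 RNAs, with values of 84.2 to 93.3.

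Hhip, which binds and sequesters the ligand, was well above background in 1 of the 4 RNAs. That was the vehicle RNA, at 111.0, against 92.1 in the Sox9-deleted RNA of the same array, while the genotype array had 97.1 and 92.4 (chr8:82496214-82496273, minus strand). Its log2 ratios were 0.07 on the genotype array, where neither RNA was above background, and 0.27 on the treatment array, where the Sox9-deleted RNA was not. It was not tested. Its signal over local background was 20.5 in wild type and 11.55 in the Sox9-deleted RNA of the treatment array. There 95% of single negative control spots were below 15.4 and 10.4, so a low level of Hhip can be neither claimed nor denied in these RNAs. In the Sox9-deleted RNA of the genotype array it was 9.90, under that level of 10.9. The other Hhip probe stayed at 86.9 to 90.1.

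Gas1, the co-receptor, had the largest difference of the 5 tested members. Its 1 probe (chr13:60276399-60276458, minus strand, 1 spot) had a brightness of 314.3 in wild type against 148.6 in Sox9-deleted RNA on the genotype array, and 455.5 in vehicle against 125.8 on the treatment array. Both Sox9-expressing RNAs were thus brighter than both Sox9-deleted RNAs. The share of all probes with this order is not given here. The log2 ratios of 1.08 and 1.86 gave a mean of 1.47 ± 0.55 (SD over n = 2 arrays, adjusted p = 0.128 by limma), a 2.77-fold difference. The mean was larger than the spread between arrays but did not pass the adjusted threshold, with a limma unadjusted p of 0.00272. Counted from the highest of 15131 tested genes, or from the lowest if every sign were turned, Gas1 was at rank 34 by mean log2 ratio, at rank 68 on the genotype array and at rank 43 on the treatment array. In Sox9-deleted RNA it was still above background. There the signal over local background was 38.8 and 37.6, where 95% of negative control spots were below 10.9 and 10.4. The study itself picked Gas1 among the most induced genes on these arrays, so its direction here is not independent evidence.

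The regulatory sequence nearest to this difference is the Gas1 promoter. Its 250 bases before the RefSeq start (GRCm38.p6, chr13:60177536-60177785, minus strand) are printed with a CCAAT box, a common promoter element, in capitals.
Gas1: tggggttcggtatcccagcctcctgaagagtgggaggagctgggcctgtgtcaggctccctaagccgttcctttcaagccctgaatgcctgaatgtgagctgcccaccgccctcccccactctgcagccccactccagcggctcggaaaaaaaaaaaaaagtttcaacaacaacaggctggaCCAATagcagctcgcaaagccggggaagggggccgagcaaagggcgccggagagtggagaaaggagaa
The CCAAT box starts 68 bases before the gene's start, and CCAAT occurs on either strand in 33.85% of 32851 promoters of the same length. Letters of the Sox core, AACAAT on either strand, occur in 9.42% of promoters, and those of the Gli core, ACCACCC on either strand, in 3.92%. Neither is in this window of Gas1. RefSeq promoters were at hand for 7 members, all but Shh and Gli1. Of these, 0 held AACAAT, 1 (Gli2) held ACCACCC and 1 (Gas1) held CCAAT. These are matches of letters only.

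**Figure D2:**
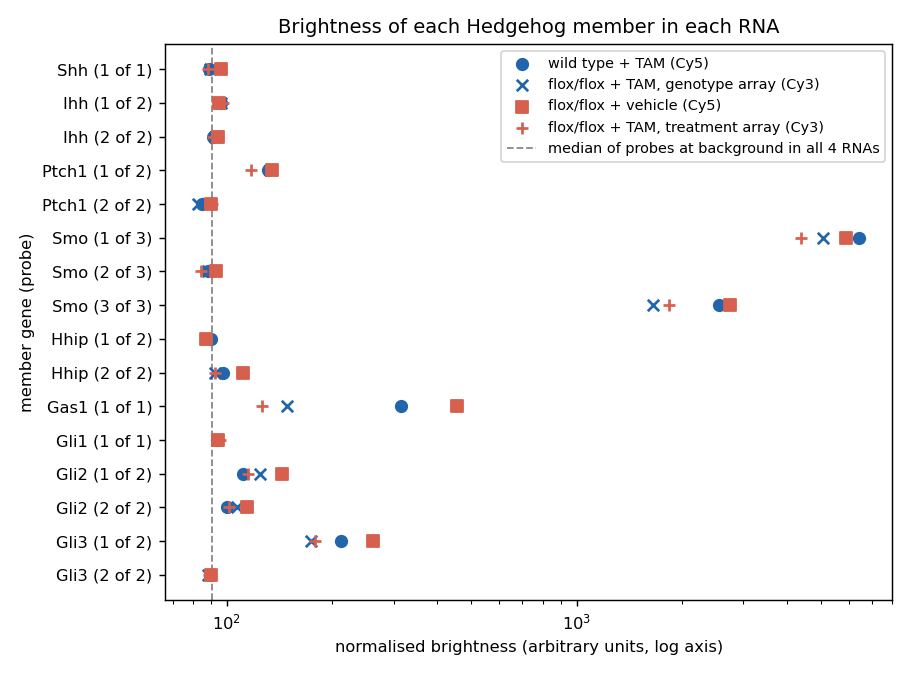
Normalized brightness of each member probe in each of the 4 RNAs, on a log axis in arbitrary units, with blue for the genotype array and red for the treatment array, filled symbols for Sox9-expressing and crosses for Sox9-deleted RNA. The dashed line is the median of probes at background in all 4 RNAs. Gas1 and the 2 expressed Smo probes have both filled symbols to the right of both crosses, as have the brighter Gli3 probe and, close to the line, 1 Hhip probe. The 10-spot Gli3 probe, at background, has the same order (89.2 and 90.3 against 88.4 and 88.6). The share of all probes with this order is not given here. Shh, Ihh and Gli1 sit near the line.

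Gli1, the activator that the pathway itself induces, was at background by the same mark in all 4 RNAs on a probe with 10 spots. Its brightness was 93.7 in wild type and 94.3 in vehicle, against 93.7 and 95.4 in the Sox9-deleted RNAs. Its signal over local background was 12.0 in vehicle and 12.1 and 13.3 in the Sox9-deleted RNAs. There 95% of single negative control spots were below 9.90, 10.9 and 10.4. In wild type it was 13.6, under that level of 15.4. A low level of Gli1 can thus be neither claimed nor denied here. It was not tested.

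Gli2, the main activator at the start of the response, had 2 dim tested probes that differed in sign between the arrays. The brighter probe (chr1:120731255-120731314) had 110.9 in wild type against 124.1, and 144.0 in vehicle against 114.9. Its log2 ratios were -0.16 and 0.33, with a mean of 0.08 ± 0.35 (SD over n = 2 arrays, adjusted p = 0.796 by limma). The probe printed above had 100 against 106.8 on the genotype array and 114.2 against 101.1 on the treatment array, for log2 ratios of -0.10 and 0.18. In wild type RNA that probe was at background, so its value there is uncertain. On the brighter probe vehicle RNA was the highest and wild type RNA the lowest of the 4.

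Gli3, which is processed to a repressor in the absence of ligand, was higher with Sox9 on both arrays. Its measured probe (chr13:15821502-15821561, plus strand) had 211.9 in wild type against 173.6, and 262.1 in vehicle against 178.6. The log2 ratios of 0.29 and 0.55 gave a mean of 0.42 ± 0.19 (SD over n = 2 arrays, adjusted p = 0.191 by limma), a 1.34-fold difference that was larger than the spread between arrays and missed the adjusted threshold. The 10-spot probe of Gli3 was at background in all 4 RNAs, with values of 88.4 to 90.3. Gli3 stands in a theme list that the study sorted by these arrays, so its direction is not independent evidence either.

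Markers of other cell types moved with some of these values. In whole spheres, fewer cells of a type and less RNA per cell cannot be told apart. Of 9 markers of fibroblasts and stroma, all tested, 8 were lower with Sox9 on the genotype array and higher on the treatment array, with medians of -0.77 and 0.60. Their summed brightness was 31930 in wild type against 56410 in Sox9-deleted RNA, and 81160 in vehicle against 49610. Col1a2, the brightest of them and a collagen chain of fibroblasts, had log2 ratios of -0.84 and 1.07. Of 4 smooth muscle markers, 3 had opposite signs on the arrays, as had 5 of 5 skeletal muscle markers, whose sums were 889.9 against 1875 and 5109 against 1459. Gli2 had the same order of signs as these markers. So had Ptch1, though its value on the genotype array was near 0 (-0.02, with spots on both sides of 0). The part of stromal cells in the values of Gli2 and Ptch1 was not tested. Gas1 and Gli3 were higher in both Sox9-expressing RNAs, and more so on the treatment array, on which the stromal sum was higher with Sox9, than on the genotype array, on which it was lower. The part of stromal cells in their values was not tested. Basal epithelial markers were higher with Sox9 on both arrays, as Gas1 was. Their median was 1.86 on the genotype array and 1.70 on the treatment array, where Gas1 had 1.08 and 1.86. All 4 of them (Krt5, Krt14, Krt15 and Trp63) were at least 2-fold higher on both arrays, with sums of 338200 against 104200 and 300900 against 101300, and their part in the value of Gas1 was not tested. The 3 luminal markers summed to 200400 against 209900 and 170700 against 251500. Krt18 had log2 ratios of -0.28 and -1.01, Krt8 0.01 and -0.74, and Krt19 0.05 and 0.18. The general epithelial markers went opposite ways, with 0.46 and 0.37 for Epcam and -0.31 and -0.32 for Cdh1, while their sums were 9547 against 8997 and 8417 against 8163. Of 3 immune markers, Cd68 of macrophages was above background in all 4 RNAs, with -0.69 and -0.77, and Ptprc and Emr1 were at background in all. Of 3 endothelial markers, Pecam1 was at background in all 4 RNAs, and Cdh5 (-0.12 and -0.16) and Kdr (0.08 and -0.09) were above it. The part of these cells in the members' values was not tested.

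**Figure D3:**
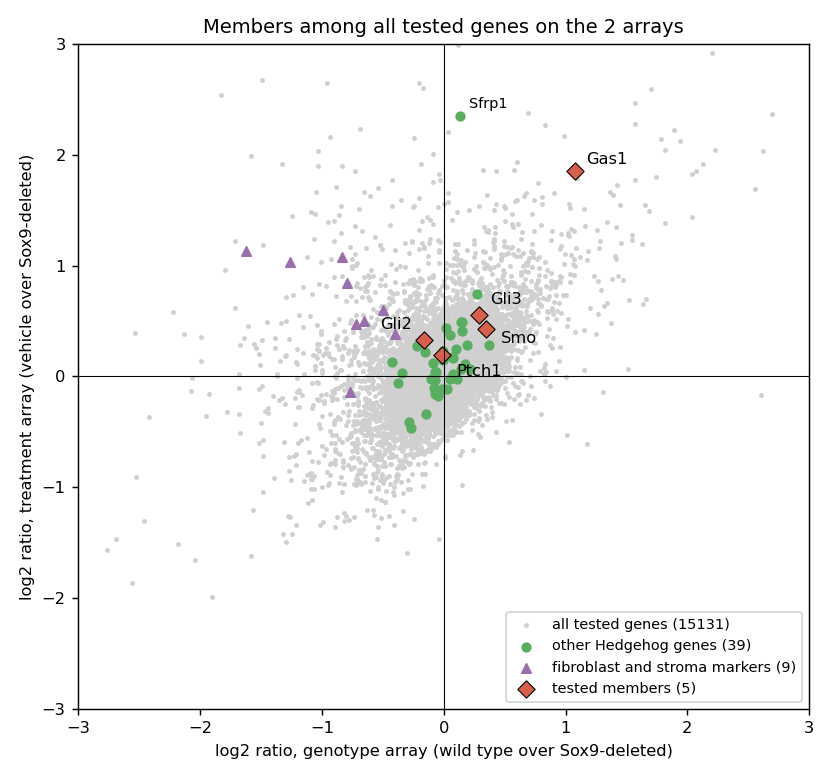
Log2 ratio on the genotype array (x axis) against that on the treatment array (y axis), one point per tested gene, with grey for all 15131 genes, green for 39 other Hedgehog genes, purple triangles for 9 fibroblast and stroma markers and red diamonds for the 5 tested members. The axes end at ±3, beyond which 8 genes lie. Gas1 is at 1.08 and 1.86, while Gli2 and the stromal markers lie left of 0 and, but for 1 marker, above 0.

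Around the members, 47 other Hedgehog genes were listed, and the array held 46 of them, with 39 passing the filter for a test. With Sox9, 17 were higher on both arrays, 10 were lower on both and 12 differed in sign, where 33.8% of all tested genes were higher and 33.8% lower on both arrays. Their values had a median mean log2 ratio of 0.04 against 0.003 for all tested genes. At least a 2-fold difference on both arrays was found for 0 of the 39, and limma called 0 at an adjusted p under 0.05. At an unadjusted p under 0.05 it called 4 higher and 2 lower, where it called 10.5% of all tested genes higher and 9.07% lower, so these counts are near the background.

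The other co-receptors showed smaller values than Gas1. Cdon had a brightness of 172.6 in wild type against 142.9 and of 236.5 in vehicle against 141.1, a mean log2 ratio of 0.51 ± 0.33 (SD over n = 2 arrays, adjusted p = 0.223 by limma). Boc had log2 ratios of -0.22 and 0.28, the order of signs of Gli2 and the stromal markers. Among genes of ligand release and processing, 4 of 7 were tested, with a median mean of -0.02. Hhat, which attaches palmitate to the ligand, was the highest at 0.12 ± 0.08, and Scube1, of a family of secreted proteins that help release it, the lowest at -0.36 ± 0.14 (SD over n = 2 arrays, adjusted p = 0.194 by limma). Dhh, the remaining ligand, was measured at -0.05 ± 0.10. So of the 3 Hedgehog ligands, Dhh was the 1 that the background filter let through, with brightness values of 103.6 to 122.3.

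Signal transduction and the cilium gave 19 tested genes of 20, with 9 higher and 6 lower on both arrays, beside 33.8% of all tested genes each way, and a median mean of 0.05. Ift172, a subunit of the intraflagellar transport machinery that Smo and Gli proteins need, was the highest at 0.33 ± 0.07 (SD over n = 2 arrays, adjusted p = 0.189 by limma). Kif3a, the motor of the same transport, was the lowest at -0.24 ± 0.14 (limma adjusted p = 0.288). Sufu, which binds and restrains Gli proteins, had 0.12 ± 0.07. Of 14 reported targets on the array 13 were tested, and 6 were higher and 3 lower on both arrays, beside the same 33.8% each way, with a median mean of 0.03. Sfrp1, a secreted Wnt antagonist, had the highest mean, 1.24 ± 1.57, which was smaller than its spread. It had 171.1 in wild type against 156.2 and 769.9 in vehicle against 150.7, so 1 of the 4 RNAs stood apart. Ccnd1, the D-type cyclin, was the lowest at -0.35 ± 0.08 (SD over n = 2 arrays, adjusted p = 0.187 by limma), with 2558 against 3123 and 2348 against 3115. Targets thus lay on both sides of 0, as did the genes of the cilium.

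The 5 genes nearest to Gas1 in their pair of log2 ratios were Fam5c, Cdc20, Fam101b, Cxcl13 and Stfa3, where nearness is the distance between the pairs over 2 arrays. Fam5c was the closest, with 1.09 and 1.79 at a distance of 0.065. The others were 0.26 to 0.33 away. Cdc20 activates the anaphase-promoting complex, Cxcl13 is a chemokine and Stfa3 is a cysteine protease inhibitor. A pair of arrays gives many genes a like pair of values, so nothing is read from the names.

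The size of the Gas1 difference varied between processing settings. Its mean was 1.88 with an offset of 10 in place of 50, 1.94 without background correction and 2.74 on the signals as processed by the scanner software. It passed an adjusted p of 0.05 with median centring in place of loess (1.66, limma adjusted p = 4.4e-07) and on the authors' processed table (1.93, limma adjusted p = 0.0426). With median centring the median of all tested probes on the treatment array was itself 0.38. Smo and Gli3 were higher with Sox9 on both arrays in each of the settings drawn, and Gli2 differed in sign between the arrays in each. Among those settings, keeping outlier spots left the values of Smo, Gli3 and Gli2 unchanged.

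**Figure D4:**
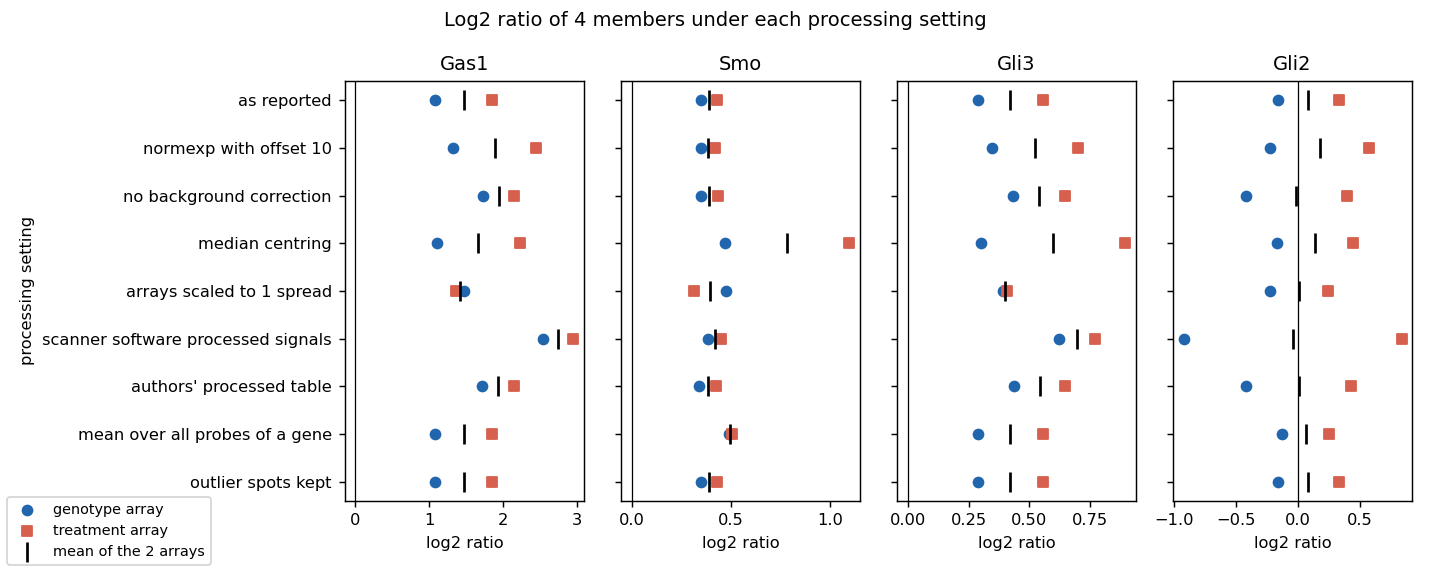
Log2 ratio of Gas1, Smo, Gli3 and Gli2 on the genotype array (circles) and the treatment array (squares), and their mean (bars), under 9 processing settings from top to bottom, each panel with its own x axis. Gas1 has its highest mean, 2.74, on the scanner software's processed signals, and Gli2 has a circle left of 0 and a square right of 0 in every setting drawn.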

How the data were processed

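The authors' scanner software (Agilent Feature Extraction 10.5.1.1) deposited, per spot and channel, mean intensity, local background intensity, processed intensity, marks for outliers and spots well above background, and log10 ratios of Cy5 over Cy3. The authors also deposited a table of log2 ratios, as its values show, whose making is not given in the sources used here. Its slopes on the log10 ratios were 3.12 and 3.14, its medians near 0 (-0.0099 and -0.0034). From mean and background intensities, limma 3.58.1 (R 4.3.3) corrected background (normexp, offset 50) and normalized by loess within arrays. Control and outlier spots were dropped before averaging the spots of each probe. Probes well above background in one dye on both arrays (22731 of 41174) were tested against 0 with lmFit and eBayes, two-sided, with Benjamini-Hochberg adjustment over all of them. The 2 arrays were the replicates, with 1 residual degree of freedom, so the p-values lean on limma's prior for the spread. They hold different comparisons, of genotype on one and of TAM against vehicle on the other. The SD and the p-values thus also take in the difference between these comparisons. The labels do not say whether the RNAs came from separate animals, so p-values may measure technical spread. Brightness per RNA was taken after loess and Aquantile scaling. A gene was read from its brightest tested probe. The number of arrays limits the precision. Named are all members, the highest and lowest gene of each other Hedgehog list and any past a threshold, and the 5 genes nearest to Gas1. One gene that this rule names is not reported here. Sufu, Boc and Dhh were added after their values were seen. The members and lists were chosen with earlier results of these data known. The code was tested on simulated data. Figures used matplotlib 3.10.9.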

Additional observations from a re-analysis of the deposited data

How the results depend on the processing

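Of the 5 tested members, Gas1, Smo and Gli3 kept their direction under each of 11 alternatives of background correction, normalization, filter, probe rule and test. Both changes of filter, keeping outlier spots and the methods' t-test left these means unchanged. Averaging all probes of a gene left those of Gas1 and Gli3 unchanged, so such settings say nothing on direction. The means of Gas1, Smo and Gli3 ranged over 1.42 to 2.74, 0.38 to 0.78 and 0.40 to 0.69. The adjusted p of Gas1 ranged over 4.4e-07 to 0.612, the last with the methods' t-test. Limma called 1 tested member, Gas1, with median centring (1.66) and on the authors' table (1.93), and 0 otherwise. Over all probes those settings called 522 and 68, against 2. Gli2 turned to -0.0148 without background correction and -0.0437 on signals processed by the scanner software. The median of the other Hedgehog genes was 0.23 with median centring, which moved all probes of the treatment array. Probes past the 2-fold rule on both arrays numbered 95, 600 on the scanner's processed signals, 148 without background correction and 147 on the authors' table. With 1 array left out, no test was possible. The values were then 1.08 and 1.86 for Gas1, 0.35 and 0.43 for Smo, 0.29 and 0.55 for Gli3, -0.0187 and 0.20 for Ptch1, and -0.16 and 0.33 for Gli2. The brightness of dim members, close to background, limits the size of their ratios. The cause of these shifts was not tested.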
